A study of Mus musculus with 8 samples.

Results

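The long-chain acyl-CoA synthetases and the carnitine palmitoyltransferases were examined as 9 genes, Acsl1, Acsl3, Acsl4, Acsl5, Acsl6, Cpt1a, Cpt1b, Cpt1c and Cpt2, among the 26586 gene symbols counted. They were taken by symbol. Acsl6 was selected on its measured values, as the single gene called lower in mito-supplemented libraries by edgeR's likelihood ratio test, and the other 8 were selected as the rest of its family and of the carnitine shuttle, so Acsl6 is described without a test. The comparison asked whether the low level of Acsl6 extended to these relatives. RNA was sequenced from primordial follicles of postnatal day 3 ovaries of C57Bl/6 x CBA mice. The 4 mito-supplemented libraries came from the third generation bred from founders whose oocytes had received mitochondria from egg precursor cells, putative germline cells of the ovarian cortex, together with a sperm at injection. The 4 control samples came from control mice of that strain. Supplementation, sperm injection and embryo transfer, all used to make the founders, cannot be told apart, as the making of the control line is not given for these libraries. The follicles had been freed from the ovary by enzyme digestion and picked by hand, and the libraries were made from amplified cDNA. Library totals were 17658559, 13917412, 18219362 and 10370045 counts in control libraries 1 to 4, and 19760763, 13370911, 16116434 and 13276462 in mito-supplemented libraries 1 to 4. Outside 4 rRNA genes, control replicate 4 held 2559876 counts, the fewest of the 8 libraries, so its levels were the least precise.

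Fatty acids must be joined to coenzyme A before a cell can burn them or build them into lipids. The ACSL enzymes carry out this activation for long chains and differ in the membranes they sit on and the chains they prefer. Cpt1 enzymes at the outer mitochondrial membrane then pass the acyl group to carnitine, and Cpt2 at the inner membrane passes it back for beta-oxidation, which oocytes and early embryos use as an energy source. A primordial follicle is an arrested oocyte within a layer of flattened pregranulosa cells.

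The isolates were checked against marker genes of the cells they could hold. All 15 oocyte markers had counts, with Nlrp5 the most abundant, and their summed level in CPM (counts per 1000000, normalised by edgeR's TMM method) was 3699, 202.4, 181.2 and 662.2 in control libraries 1 to 4 and 309.5, 200.4, 785.4 and 124.5 in mito-supplemented libraries 1 to 4. The 13 pregranulosa markers, led by Wt1, ranged in sum from 196.2 to 983.5 CPM in controls, against 382.1 to 1232 CPM in mito-supplemented libraries. Red cell markers set 3 libraries apart. The 17 of these markers that were listed summed to 13420 CPM in control replicate 2, 8974 in control replicate 3 and 11490 in mito-supplemented replicate 1, but to between 62.09 and 199 CPM in the other 5 libraries. The haemoglobin gene Hbb-b1 was at 287.7, 90.87 and 342.4 CPM in these 3 libraries and at 6.649 to 10.46 CPM in the others, while Hba-a1 had 0 counts in 7 libraries and 5 counts in mito-supplemented replicate 1. The 9 leukocyte markers summed to 130.7, 114.8 and 737.7 CPM in the same 3 libraries and to 7.548 to 21.32 CPM in the others. Most of these 3 sums came from Lyz2 (102.1, 74.06 and 638.1 CPM) and Ptprc (19.74, 29.51 and 71.72 CPM), whereas Cd68 and Csf1r did not set the 3 libraries apart. These 3 libraries are called red-cell-rich hereafter, a description made after the data were seen. In such bulk samples, fewer cells of a type and less RNA per cell cannot be told apart.

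Acsl6, an isoform known from brain and from red cell precursors, was low in every library. Its level was 3.12, 1.51, 2.57 and 6.32 CPM in control libraries 1 to 4 (76, 19, 45 and 32 counts) and 0.291, 0.416, 0.408 and 0.139 CPM in mito-supplemented libraries 1 to 4 (6, 6, 9 and 2 counts). The groups did not overlap, as was the case for 2.03% of the 13873 genes tested in the lower direction, a share printed as background only because Acsl6 was chosen on this contrast. The mean was 3.38 ± 2.07 CPM in controls, against 0.314 ± 0.130 CPM in mito-supplemented libraries (± SD over 4 libraries), a ratio of 0.0928. Summed over libraries there were 172 counts in controls and 23 in mito-supplemented libraries, or 2.89 CPM (95% exact Poisson interval 2.47 to 3.35) against 0.322 CPM (0.204 to 0.483). These intervals cover counting error only. The fitted log2 fold change was -3.38 with a standard error of 0.89, and it lay between -3.82 and -2.57 over 22 alternative settings. The value on which Acsl6 was chosen, its adjusted p in edgeR's likelihood ratio test, was 0.0402. With 1 library left out in turn that value was lowest at 0.0620 (mito-supplemented replicate 1 left out) and highest at 0.287 (mito-supplemented replicate 2 left out), and was under 0.05 in 0 of the 8 fits. The next genes in the lower direction lay outside the threshold of 0.05, Gm166 at 0.0779, Fstl4 at 0.0801 and C130083M11Rik at 0.0914 by the same edgeR test. Acsl6 lies on chromosome 11 of GRCm38 (54303798 to 54364756, plus strand), and some of its exons overlap those of Gm12224, so its counts are uncertain to that extent.

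The highest Acsl6 level of each group was not in a red-cell-rich library. The pair among the controls had 1.51 and 2.57 CPM against 3.12 and 6.32 CPM in the other controls, and the one in the mito-supplemented group had 0.291 CPM, within the range of its group. Of 10 neuron markers, 2 passed the expression filter, Syt1 and Rbfox3, and the list summed to 18.91, 13.80, 5.66 and 39.08 CPM in control libraries 1 to 4 and 10.19, 9.004, 28.04 and 13.70 CPM in mito-supplemented libraries 1 to 4, with overlapping groups. Both the oocyte and the neuron lists, like Acsl6, had control replicates 1 and 4 as the highest controls. All 13 oocyte markers tested (median log2 fold change -1.80) and all 14 red cell markers tested (median -1.02) were below 0, the direction of Acsl6. The oocyte markers summed to 3699 CPM in control replicate 1. The sums of the other controls, at 181.2 to 662.2 CPM, lay within the range of the mito-supplemented libraries. Each of the 13 oocyte markers tested also had its highest level of the 8 libraries in control replicate 1. In the other controls Gdf9 was at 2.80 to 13.4 CPM, against 4.16 to 25.1 CPM in mito-supplemented libraries. Kit had the opposite order, at 45.4 to 92.0 against 16.2 to 84.7 CPM. The direction of each oocyte marker without control replicate 1 was not tested. The neuron list was mixed. The 2 genes tested were below 0 (median -0.85), Snap25, Syp, Tubb3 and Stmn2 had more counts in the controls (12, 127, 22 and 21 against 4, 16, 15 and 19), and Elavl4, Gap43, Nefl and Nefm had fewer (14, 0, 2 and 13 against 63, 1, 54 and 88). By mean CPM, Stmn2 had the opposite order, at 0.225 in controls against 0.234 in mito-supplemented libraries. The part of such cells in the Acsl6 level was not tested. Within each library, Acsl6 per kb of exon was 2.91%, 1.21%, 2.27% and 8.81% of the Acsl4 level in control libraries 1 to 4, and 0.276%, 0.475%, 0.483% and 0.140% in mito-supplemented libraries 1 to 4. This ratio restates the values on which Acsl6 was chosen, on a scale within each library.

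**Figure D1:**
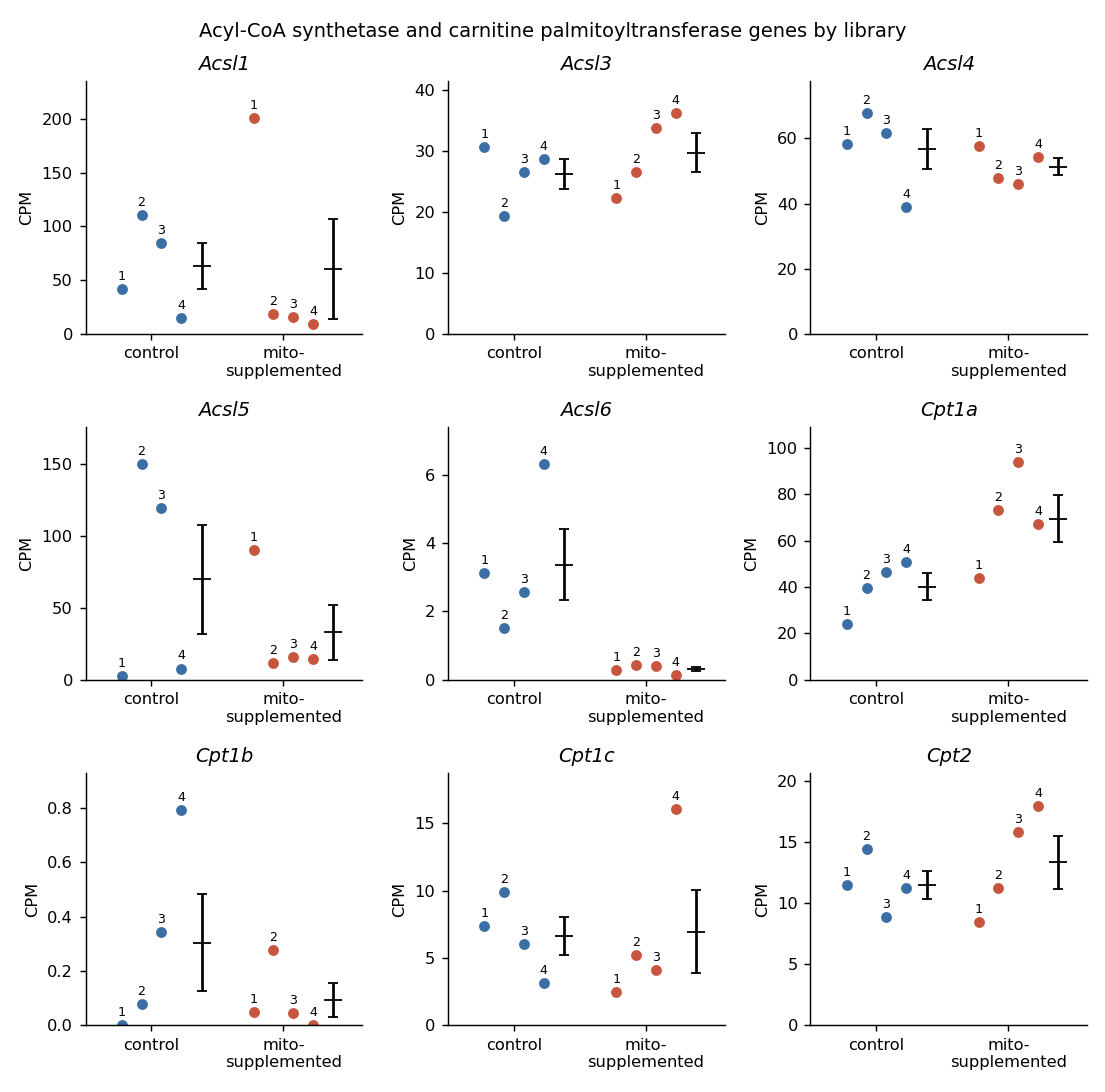
Level in CPM (linear axes from 0) of each of the 9 genes in the 4 control (blue) and 4 mito-supplemented (red) libraries. Digits are replicate numbers, and bars are the mean ± SEM (n = 4). The groups are apart for Acsl6, at 1.51 to 6.32 against 0.139 to 0.416 CPM, and overlap for the other 8 genes.

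None of the other ACSL genes was called lower by edgeR with all libraries, and in each the groups overlapped. Acsl4, which prefers arachidonate, was steady at 39.1 to 67.9 CPM in controls, against 46.1 to 57.5 CPM in mito-supplemented libraries. Its log2 fold change was -0.14 (SE 0.31, adjusted p = 0.893, edgeR's quasi-likelihood test), and the sign turned with scaling by library size only (0.081). Acsl3, an isoform of the endoplasmic reticulum and lipid droplets, was at 19.3 to 30.6 CPM in controls, against 22.3 to 36.2 CPM in mito-supplemented libraries. Its log2 fold change was 0.18 (SE 0.34, adjusted p = 0.882, same edgeR test). For both genes the standard error leaves room for modest differences in either direction, but each library of one group lay within 2-fold of the other group's mean.

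Acsl1 and Acsl5 varied most among the well-expressed members, and their levels were highest in the 3 libraries rich in red cell markers, Lyz2 and Ptprc. Acsl1, the main isoform of liver, fat and heart, was at 42.1, 110.1, 84.5 and 14.8 CPM in control libraries 1 to 4 and 200.4, 18.1, 15.4 and 8.69 CPM in mito-supplemented libraries 1 to 4. Acsl5, an isoform of the intestine and liver, was at 2.58, 149.4, 119.5 and 7.70 CPM in the controls and 89.9, 11.6, 16.0 and 14.3 CPM in the mito-supplemented libraries, in the same order. Both genes had their highest 3 levels in the red-cell-rich libraries, control replicates 2 and 3 and mito-supplemented replicate 1. The same was true of 14.1% of all genes tested (1963 of 13873), and the part of red cells or leukocytes was not tested. The log2 fold change was -0.05 for Acsl1 (SE 0.98, adjusted p = 0.989) and -1.08 for Acsl5 (SE 1.13, adjusted p = 0.796), both from edgeR's quasi-likelihood test. With the red cell level as a covariate the value for Acsl5 was 0.67, and in the 5 libraries outside the red-cell-rich 3 it was 1.47, so its direction turned. That for Acsl1 was -2.15 when mito-supplemented replicate 1 was left out and 0.36 at its highest, when control replicate 2 was left out. In limma-voom with sample quality weights, Acsl1 was called lower (-1.99, adjusted p = 0.0355), and Acsl5 was at -2.45 (adjusted p = 0.0609). That fit put 21% of all genes tested under an adjusted p of 0.05.

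**Figure D2:**
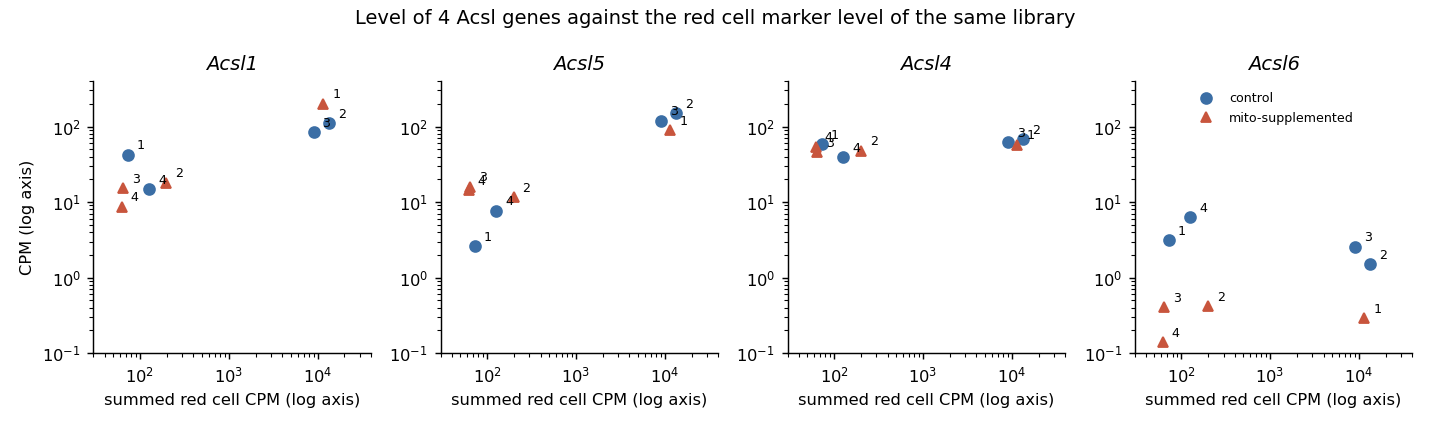
Level of Acsl1, Acsl5, Acsl4 and Acsl6 (CPM, log axis) against the summed CPM of the red cell markers (log axis) in each library, with controls as blue circles, mito-supplemented libraries as red triangles and replicate numbers beside them. Acsl5 lies at 89.9 to 149.4 CPM in the 3 libraries with 8974 to 13420 red cell CPM and at 2.58 to 16.0 CPM in the other 5. Acsl6, chosen on its group difference, is at 0.291 CPM (6 counts) in the single mito-supplemented library with a high red cell level.

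As the CPM of different genes depend on transcript length, the members were ranked by CPM per kb of merged exon. That length covers all transcripts of a gene. It was 10483 bases for Acsl1 and 7642 for Cpt1a, whose longest transcripts had 5676 and 4317 bases. For Cpt2 these lengths were 2391 and 2372 bases, so the order of the members depends on the length used. The mean over 8 libraries was 10.6 ± 12.1 for Acsl5, 10 ± 1.73 for Acsl4, 7.18 ± 2.89 for Cpt1a, 6.42 ± 1.28 for Acsl3, 5.89 ± 6.40 for Acsl1 and 5.21 ± 1.41 for Cpt2 (CPM per kb, SD, n = 8). Neighbours among these 6 differed by less than the larger SD of the pair, though Acsl4 and Cpt1a differed by more than the SD of Acsl4. Cpt1c followed at 1.21 ± 0.792, Acsl6 at 0.186 ± 0.215 and Cpt1b at 0.0587 ± 0.0805 CPM per kb (SD, n = 8). Acsl5 ranked first only through the red-cell-rich libraries, as its median was 3.11 CPM per kb against 10.3 for Acsl4. Acsl1 and Acsl5 together made up 70.6%, 64.8% and 70.4% of the summed ACSL level per kb in control replicates 2 and 3 and mito-supplemented replicate 1, and 17.1% to 22.6% in the other 5 libraries. Acsl6 made up 1.45% ± 1.54 in controls and 0.134% ± 0.0866 in mito-supplemented libraries (± SD over 4 libraries). Its highest share was 3.66%, in control replicate 4, so most of the ACSL transcript in each library came from the other 4 genes.

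**Figure D3:**
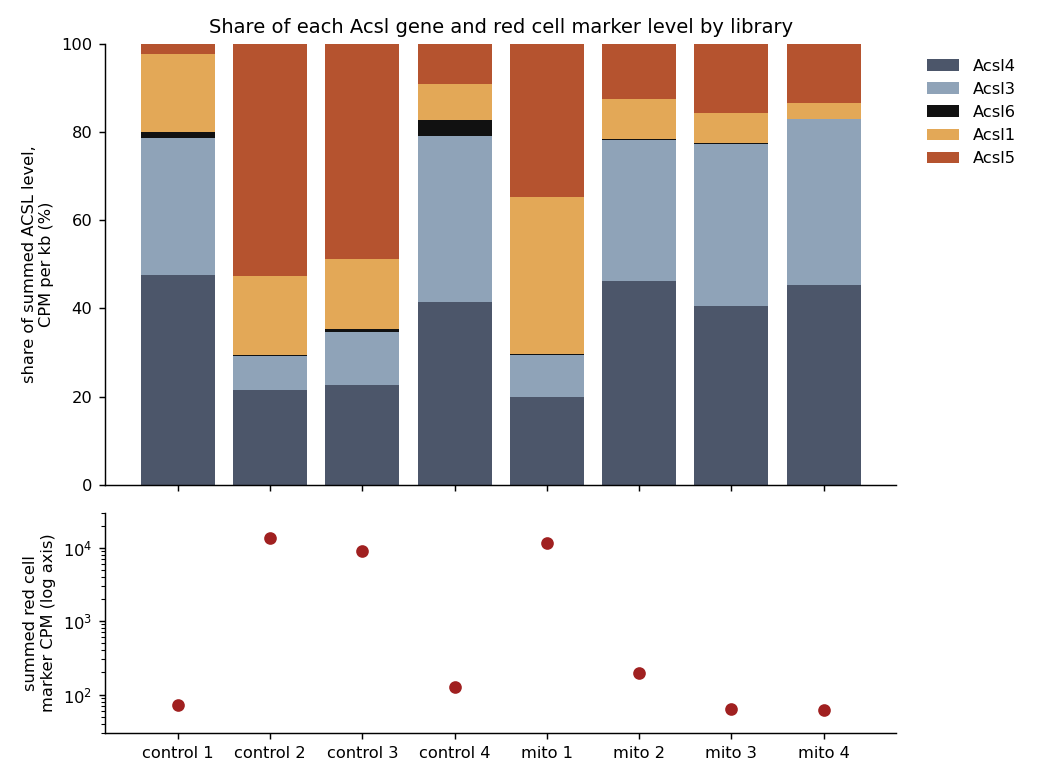
Share of each Acsl gene in the summed ACSL level (percent of CPM per kb, stacked bars) and summed CPM of the red cell markers (log axis, points) in each library, with mito-supplemented written as mito. Acsl1 and Acsl5 together take 64.8% to 70.6% where the red cell level is high and 17.1% to 22.6% elsewhere, and Acsl6 takes at most 3.66%.

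Among the carnitine palmitoyltransferases, Cpt1a, which sets the pace of entry into mitochondrial beta-oxidation in most tissues, lay on the higher side in mito-supplemented libraries. It was at 23.8, 39.6, 46.3 and 50.9 CPM in control libraries 1 to 4 and 43.9, 73.1, 93.9 and 67.2 CPM in mito-supplemented libraries 1 to 4. Replicates 2 to 4 of the mito-supplemented group were above every control, and replicate 1, a red-cell-rich library, lay within the control range. The log2 fold change was 0.79 (SE 0.37, adjusted p = 0.655, edgeR's quasi-likelihood test), which did not pass the threshold, and it was between 0.63 and 1.24 over 22 alternatives with adjusted p between 0.0379 and 0.971. The lowest of these came from limma-voom with sample quality weights, the one alternative in which the adjusted p was under 0.05. That fit put 21% of all genes tested under 0.05. Surface epithelium markers moved in the same direction as Cpt1a, and their part was not tested: the 9 genes, led by Lgr5, summed to 88.32, 54.31, 38.89 and 360.8 CPM in control libraries 1 to 4 and 380.7, 956.5, 414.9 and 808 CPM in mito-supplemented libraries 1 to 4. All 9 had a log2 fold change above 0 (median 2.02), and none was at 0 in all libraries. In edgeR's quasi-likelihood test 7 had an unadjusted p under 0.05, and its likelihood ratio test called 2 higher. Among all genes, in either direction, these shares were 7.71% and 0.418%. Pregranulosa markers (11 of 13 above 0, median 0.85, 2 at an unadjusted p under 0.05, same quasi-likelihood test) had the same direction. So did stroma and endothelium markers, led by Col3a1 (9 of 10 above 0, median 0.77), which summed to 339.5, 456.6, 657.4 and 2289 CPM in the controls and 1019, 1152, 2571 and 2223 CPM in the mito-supplemented libraries.

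Cpt2 was at 8.86 to 14.4 CPM in controls, against 8.44 to 18.0 CPM in mito-supplemented libraries, with a log2 fold change of 0.22 (SE 0.44, adjusted p = 0.886, edgeR's quasi-likelihood test). Cpt1c, a brain form of the endoplasmic reticulum with little catalytic activity, was at 7.38, 9.91, 6.06 and 3.16 CPM in the controls and 2.48, 5.19, 4.13 and 16.1 CPM in the mito-supplemented libraries. Its highest level was in mito-supplemented replicate 4. The log2 fold change was 0.06 with all libraries (SE 0.70, adjusted p = 0.981, same edgeR test) and -0.73 without that replicate. The sign also turned without control replicate 4 (-0.14), with the red cell covariate (-0.11), with the replicate block (-0.30) and in weighted limma-voom (-0.56). Cpt1b, the muscle form, had between 0 and 6 counts in each library, 11 in all controls and 6 in all mito-supplemented libraries, and did not pass the expression filter. A count of 0, as in control replicate 1, allows up to 3 counts, or 0.123 CPM there. Cpt1b was thus not tested for a difference between the groups. Within a library, Cpt1a per kb of merged exon was 0.646 to 1.63 times Cpt2 in controls and 1.17 to 2.04 times in mito-supplemented libraries, so these ranges overlapped. The size of this ratio depends on the gene length used. Exons of Acsl1, Acsl3, Acsl5, Cpt1b and Cpt1c each overlap exons of a neighbour, so their counts are uncertain, whereas those of Acsl4, Cpt1a and Cpt2 do not.

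Of the 9 members, 8 passed the filter, and edgeR's quasi-likelihood test called 0 of the 7 other than Acsl6, where 0 of the 13873 genes tested (0%) were called at an adjusted p under 0.05 and a 2-fold difference. At an unadjusted p under 0.05 this test found 7.71% of all genes, 1069, and among the 7 members tested other than Acsl6 it found 0. By the likelihood ratio test 58 genes were called (0.418%), 1 of them lower (0.00721%), which was Acsl6. The number called lower in that test was not stable, at 158 when mito-supplemented replicate 1 was left out, 67 in the 5 libraries outside the red-cell-rich 3, 24 with the red cell covariate and 0 with library size as the only scaling. DESeq2 called 141 genes in all and limma-voom with sample quality weights 2578. The median log2 fold change of the 7 members other than Acsl6 was 0.06, and that of all genes tested was -0.098. With library size as the only scaling, all genes had a median of 0.172.

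**Figure D4:**
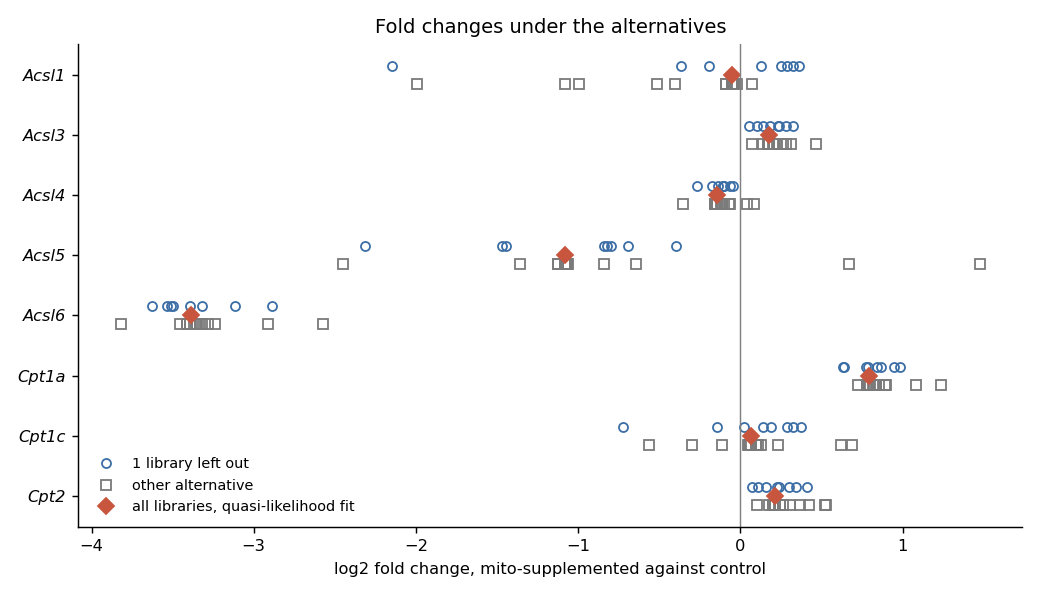
Log2 fold change of the 8 members that passed the filter, mito-supplemented against control, in the quasi-likelihood fit of all libraries (diamonds), with 1 library left out (circles) and under the other alternatives (squares). Acsl6 stays between -3.82 and -2.57 and Cpt1a between 0.63 and 1.24, while Acsl1, Acsl4, Acsl5 and Cpt1c have values on both sides of 0.

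The 250 bases before the RefSeq start sites were examined because Acsl1 and Acsl5 varied together across libraries and Acsl6 did not vary with them. RefSeq windows (GRCm38.p6) were matched by symbol for 8 of the 9 members, 11 windows in all, 3 of them of Acsl6. The first windows of Acsl6, Acsl1 and Acsl5 are given from 5′ to 3′ without bases that lie in an annotated exon, and capitals mark GGGCGG, a GC box, or AGGTCA, a nuclear receptor half-site, or their reverse-strand letters CCGCCC and TGACCT.
Acsl6, chr11:54303574-54303797, strand +: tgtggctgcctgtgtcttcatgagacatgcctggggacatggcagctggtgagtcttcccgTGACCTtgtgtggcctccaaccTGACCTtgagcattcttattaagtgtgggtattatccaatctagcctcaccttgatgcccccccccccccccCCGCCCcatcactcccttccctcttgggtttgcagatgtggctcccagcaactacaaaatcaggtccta
Acsl1, chr8:46470787-46471036, strand +: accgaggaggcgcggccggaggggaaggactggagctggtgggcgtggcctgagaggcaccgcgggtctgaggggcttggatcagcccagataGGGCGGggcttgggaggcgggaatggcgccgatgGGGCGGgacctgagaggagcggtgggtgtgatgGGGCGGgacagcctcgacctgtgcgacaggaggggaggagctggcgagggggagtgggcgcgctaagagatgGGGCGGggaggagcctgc
Acsl5, chr19:55253119-55253368, strand +: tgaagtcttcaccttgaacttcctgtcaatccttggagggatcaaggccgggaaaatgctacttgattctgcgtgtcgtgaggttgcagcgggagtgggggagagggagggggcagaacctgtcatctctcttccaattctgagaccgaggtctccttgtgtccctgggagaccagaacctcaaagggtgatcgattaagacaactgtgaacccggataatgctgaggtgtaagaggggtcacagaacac
The Acsl6 window held 2 matches to AGGTCA, starting 189 and 167 bases before the start, and 1 to GGGCGG. That of Acsl1 held 4 matches to GGGCGG, and that of Acsl5 held none of the motifs searched. The motif AGATAA, bound by GATA factors, and CCACACCC, bound by erythroid Kruppel-like factor, had matches in 0 of the 11 windows. GGGCGG was in 9 of the 11, and AGGTCA was also in the windows of Cpt1a and Cpt1c. Over all 32851 promoter windows of this length, AGATAA was found in 9.99%, CCACACCC in 3.2%, AGGTCA in 14% and GGGCGG in 32.7%. A match is a description of letters, not a site shown to be bound, and no match says only that these letters are not in these windows.

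The surrounding pathway was described through 9 further lists with 120 genes, of which 102 passed the filter. In edgeR's quasi-likelihood test 0 of the 102 were called. At an unadjusted p under 0.05 there were 9 (8.82%, against 7.71% of all genes), 7 higher and 2 lower in mito-supplemented libraries, so this share lay near the background. Groups did not overlap for 4 genes in the higher direction (3.00% of all genes) and 2 in the lower direction (2.03% of all genes). The median log2 fold change of the 102 genes was 0.07. By the likelihood ratio test 1 of the 102 was called, Acsbg1, where 0.418% of all genes tested were called.

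Acsbg1, a synthetase of the bubblegum family that also activates long-chain fatty acids, ran opposite to Acsl6. It was at 0.903, 1.67, 3.55 and 7.90 CPM in control libraries 1 to 4 and 21.6, 21.9, 19.6 and 27.9 CPM in mito-supplemented libraries 1 to 4. Every mito-supplemented library was above every control, with a mean of 22.7 ± 3.58 against 3.50 ± 3.13 CPM (± SD over 4 libraries). The log2 fold change was 2.73 (SE 0.67), with an adjusted p of 0.540 from edgeR's quasi-likelihood test and 0.0387 from its likelihood ratio test. With 1 library left out in turn the latter was under 0.05 in 2 of 8 fits, those that left out control replicate 4 (0.000728) or mito-supplemented replicate 1 (0.0285). Leaving out control replicate 1, 2 or 3 gave 0.0591, 0.257 and 0.152, and leaving out mito-supplemented replicate 2, 3 or 4 gave 0.210, 0.1 and 0.156 (edgeR's likelihood ratio test). In the other settings of that edgeR test it was between 0.00154 (library size only) and 0.0427 (RLE size factors), except over 0.05 with counts summed by label prefix (0.129), with genes kept at 1 count in any sample (0.0632) and in the 5 libraries outside the red-cell-rich 3 (0.195). DESeq2 (adjusted p = 0.0098) and weighted limma-voom (adjusted p = 0.0121) also called Acsbg1 higher, unlike edgeR's quasi-likelihood test. The limma-voom fit put 21% of all genes tested under an adjusted p of 0.05. The sum of the surface epithelium markers, given beside Cpt1a, was also higher in each mito-supplemented library than in each control, though 6 of the 9 genes overlapped between groups, and their part in the Acsbg1 level was not tested. Per kb, the level of Acsl6 was 1.26, 0.329, 0.264 and 0.291 times that of Acsbg1 in control libraries 1 to 4, and 0.00490, 0.00690, 0.00757 and 0.00181 times in mito-supplemented libraries 1 to 4. This ratio restates the values on which Acsl6 was chosen and Acsbg1 was singled out.

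**Figure D5:**
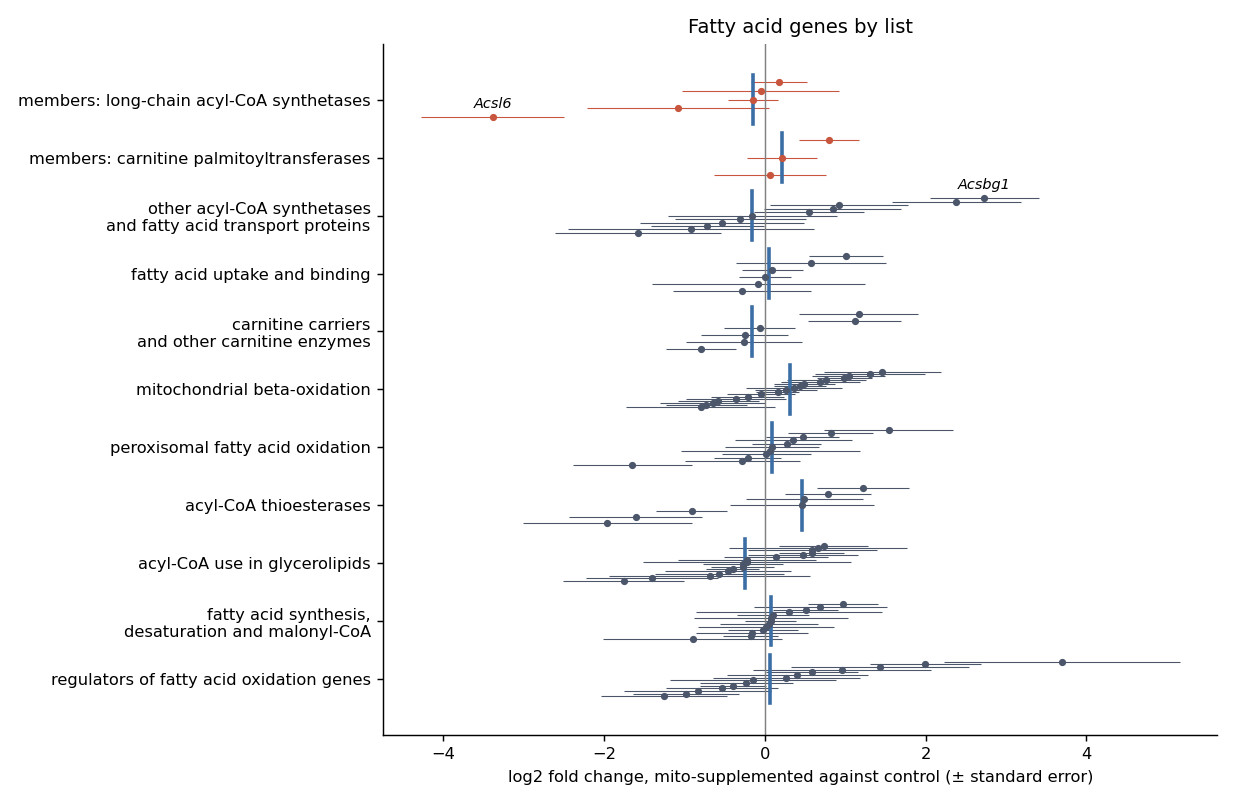
Log2 fold change, mito-supplemented against control, with its standard error for each gene tested in the lists of the members (red) and of the surrounding pathway (dark), with the median of each list as a blue line. Acsl6 lies at -3.38 and Acsbg1 at 2.73, and the list medians lie between -0.25 and 0.46.

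In the list of other acyl-CoA synthetases and fatty acid transport proteins, 11 of 18 genes were tested and 5 had a log2 fold change above 0. Acss1, the mitochondrial acetyl-CoA synthetase, showed the pattern of Acsl5, at 74.5, 83.5 and 75.7 CPM in control replicates 2 and 3 and mito-supplemented replicate 1 and at 0.123 to 6.44 CPM in the other 5 libraries. Acsf2 was at 0.801 to 2.95 CPM in controls, against 1.55, 14.0, 11.2 and 12.2 CPM in mito-supplemented libraries 1 to 4 (unadjusted p = 0.0138, adjusted p = 0.626, edgeR's quasi-likelihood test). Slc27a4, a fatty acid transport protein, had a log2 fold change of -0.30 (SE 0.81). Of the 8 genes for uptake and binding, 6 were tested and 4 were above 0. Cd36, a fatty acid receptor of many cell types including red cell precursors, was at 157.8, 70.7 and 231.2 CPM in the red-cell-rich libraries and at 1.74 to 28.6 CPM in the others. Dbi, the acyl-CoA binding protein, was at 17.7 to 39.9 CPM in controls, against 28.0 to 87.1 CPM in mito-supplemented libraries, a log2 fold change of 1.01 (SE 0.46). In all, 12 of the 102 pathway genes (11.8%) had their 3 highest levels in the red-cell-rich libraries, against 14.1% of all genes tested.

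Carnitine carriers and other carnitine enzymes showed no shared direction, with 6 of 8 genes tested, 2 above 0 and a median of -0.16. Slc25a20, the carrier that exchanges acylcarnitine for carnitine across the inner membrane between Cpt1 and Cpt2, was at 3.49 to 12.1 CPM in controls, against 2.43 to 11.8 CPM in mito-supplemented libraries (log2 fold change -0.26, SE 0.72). Crat had a log2 fold change of -0.25 (SE 0.54), and Aldh9a1, which acts in carnitine synthesis, of -0.80 (SE 0.43). Slc22a5, the plasma membrane carnitine transporter, was at 2.14 to 5.92 CPM in controls, against 6.95 to 9.56 CPM in mito-supplemented libraries, and is named after its values were seen because its groups did not overlap. Acot8 and Agpat3, named for the same reason, were the genes with the opposite order, Acot8 at 4.46 to 6.66 against 0 to 2.33 CPM and Agpat3 at 28.07 to 39.5 against 19.4 to 28.05 CPM.

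For mitochondrial beta-oxidation all 18 genes were tested, with 11 above 0 and a median log2 fold change of 0.31. The list summed to 472.9 to 523.9 CPM in controls, against 513 to 735.5 CPM in mito-supplemented libraries. The medians of the surface epithelium, pregranulosa, and stroma and endothelium markers, given beside Cpt1a, were also above 0. Their part in the levels of the beta-oxidation genes was not tested. Acaa2, the last thiolase of the spiral, was at 34.9 to 56.1 CPM in controls, against 49.7, 100.8, 84.7 and 96.1 CPM in mito-supplemented libraries 1 to 4 (log2 fold change 0.99, SE 0.35, adjusted p = 0.626, edgeR's quasi-likelihood test). Hadh had a similar order, at 12.8 to 27.2 CPM in controls, against 15.8, 41.6, 47.6 and 51.2 CPM in mito-supplemented libraries 1 to 4. As with Cpt1a, the red-cell-rich replicate 1 was the lowest of its group for Acaa2, Hadh and Acsf2. Hadha, a subunit of the trifunctional protein, was steady at 128.1 to 183.1 CPM over the 8 libraries.

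For peroxisomal oxidation 11 of 13 genes were tested, 8 were above 0 and the median was 0.09. Ehhadh was at 4.76 to 10.41 CPM in controls, against 4.80, 2.77, 0.953 and 0.904 CPM in mito-supplemented libraries 1 to 4 (log2 fold change -1.65, SE 0.74, adjusted p = 0.647, edgeR's quasi-likelihood test). Hsd17b4 and Abcd3 had log2 fold changes of -0.21 (SE 0.42) and 0.02 (SE 0.55). Among thioesterases, which undo the activation step, 7 of 12 genes were tested, 4 were above 0 and the median was 0.46. Acot13 was at 11.8 to 31.3 CPM in controls, against 9.39 to 16.7 CPM in mito-supplemented libraries, and Acot2 at 4.74 to 19.2 and 10.43 to 27.3 CPM.

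Genes that place acyl-CoA into glycerolipids had a median of -0.25, with all 16 tested and 6 above 0. Lpcat1, which reacylates lysophosphatidylcholine, was at 105.4, 333.3, 250.9 and 56.3 CPM in control libraries 1 to 4 and at 144.1, 23.6, 24.2 and 28.9 CPM in mito-supplemented libraries 1 to 4. Its 3 highest levels were in the red-cell-rich libraries, and the log2 fold change was -1.76 (SE 0.75, adjusted p = 0.635, edgeR's quasi-likelihood test). Agpat4 ranged from 0.041 to 65.2 CPM in controls, against 5.67 to 30.9 CPM in mito-supplemented libraries. For synthesis, desaturation and malonyl-CoA all 13 genes were tested, 9 were above 0 and the median was 0.07. Elovl5, an elongase of polyunsaturated fatty acids, was at 9.51 to 28.2 CPM in controls, against 32.4 to 60.1 CPM in mito-supplemented libraries (log2 fold change 0.97, SE 0.44, adjusted p = 0.647, same edgeR test). Acacb and Mlycd, which make and remove the malonyl-CoA that inhibits Cpt1, had log2 fold changes of 0.05 (SE 0.61) and 0.08 (SE 0.96). Both were called higher in weighted limma-voom (1.47, adjusted p = 0.0281, and 2.94, adjusted p = 0.0279), where 21% of all genes tested had an adjusted p under 0.05. Scd2 and Fads1 were at 0.10 (SE 0.45) and -0.02 (SE 0.43) in the edgeR fit.

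Among the regulators 14 of 14 genes were tested, 7 were above 0 and the median was 0.06. Ppara, the receptor that drives fatty acid oxidation genes including Cpt1a and Acsl1 in liver, was at 8.04, 1.35, 2.12 and 1.38 CPM in control libraries 1 to 4 and at 10.6, 16.4, 11.9 and 13.4 CPM in mito-supplemented libraries 1 to 4. Its groups did not overlap, and the log2 fold change was 2.00 (SE 0.69, adjusted p = 0.626, edgeR's quasi-likelihood test). Pparg had 1, 0, 14 and 0 counts in the controls and 52, 8, 35 and 108 counts in the mito-supplemented libraries, or 0 to 0.801 against 0.554 to 7.51 CPM. Its groups overlapped, and of the 6 adipocyte markers Adipoq, Cidec, Cfd and Lep had 0 counts in all 8 libraries. Retn had 3 counts in control replicate 3 and 11 and 7 in mito-supplemented replicates 2 and 3, and Plin1 had 11 in control replicate 4 and 2 and 3 in mito-supplemented replicates 2 and 3. The part of such cells in the Pparg level was not tested. The AMP-activated kinase subunits Prkaa1 and Prkab1 had log2 fold changes of -0.39 (SE 0.41) and -0.83 (SE 0.92).

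Over the 8 libraries, the genes whose log2 CPM was most like that of Acsl6 among 10280 genes averaging at least 5 CPM were Med19 (Pearson r = 0.993), 2900064A13Rik (0.965), Nom1 (0.940), Pacs2 (0.940) and Cct2 (0.937). These are descriptions with no test, as the group difference of Acsl6 enters them. Med19, a Mediator subunit, was at 21.2 to 30.4 CPM in controls, against 11.2 to 13.8 CPM in mito-supplemented libraries. After the group means were subtracted the most alike were Tmem184c (0.988), 6330439K17Rik (0.984), Tiam2 (0.975), Zbtb33 (0.972) and Med19 (0.970), over the same 8 libraries. In all 5 of these, control replicate 4 was the highest control, as it was for Acsl6, and this was the library with the lowest depth outside rRNA.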

How the data were processed

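RNA-Seq counts of primordial follicles from 4 control and 4 mito-supplemented libraries were analysed. Per the submitters' processing notes and the methods, the authors trimmed reads with Trim Galore 0.4.4, mapped them to GRCm38/mm10 with STAR 2.5.3a, counted them on annotated exons with featureCounts and left out 1 further control library as an outlier, which was not analysed here. The deposited values are raw counts per gene, and the annotation release, strand setting and treatment of multimapping reads are not given in the sources used here. Groups and replicate numbers were taken from the labels. Each library is labelled a biological replicate, but litters and mothers are not given. Label prefixes are shared by control libraries 1 and 2, by control libraries 3 and 4, and by mito-supplemented libraries 1, 2 and 3. If a prefix stands for a mother or litter, libraries that share it are not independent, and an alternative summed their counts. The p-values measure the spread between these libraries.

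Counts were analysed with edgeR 4.0.16 in R 4.3.3 with TMM normalization and filterByExpr defaults, leaving 13873 genes. The test was edgeR's quasi-likelihood test with legacy settings and Benjamini-Hochberg adjustment over all genes tested. Genes were called at an adjusted p under 0.05 and at least a 2-fold difference. The likelihood ratio test, which the study used, DESeq2 1.42.0 and limma 3.58.1 served as alternatives, with other normalizations and filters, a replicate block, summed counts, a red cell covariate and each library left out. Fold changes are mito-supplemented against control. Log2 CPM used a prior count of 2, and standard errors were derived from the fold change and its test statistic. Exon lengths and positions are from GENCODE M21, to which 24545 of 26586 symbols were matched. Totals ranged from 10370045 to 19760763 counts, which limits the precision of genes with few counts. No pair of libraries in a group agreed within sampling noise, with chi-square per degree of freedom at 60 or more. The code was tested on simulated counts.

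The members and lists were chosen with earlier results of these data known. Named were all members, and from each pathway list the 2 genes tested with the highest CPM per kb, any gene with an unadjusted p under 0.05, and Slc25a20, Crat, Mlycd, Acacb, Ppara, Dbi and Slc27a4. Also named were the 5 genes most like Acsl6 by Pearson correlation, with and without group means subtracted, and the most abundant gene of 8 marker lists. Slc22a5, Acot8, Agpat3, the 3 genes next to Acsl6 in adjusted p, and other marker genes were named outside this rule, after their values were seen. The marker lists were oocyte, pregranulosa, red cell, neuron, striated muscle, adipocyte, leukocyte, surface epithelium, and stroma and endothelium genes, with 13, 13, 14, 2, 2, 0, 5, 9 and 10 genes tested. In each, 0 were called by edgeR's quasi-likelihood test, as among all genes. Its likelihood ratio test called 2 surface epithelium genes, and 0.418% of all genes.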

Additional observations from a re-analysis of the deposited data

Results flagged for a closer look

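In 48 groups of 4 libraries, 12 values stood far from the other 3 of their group. A chance count of about 2.4 holds only for independent, normally distributed values. These values share libraries and some restate each other, so that count is a rough guide only. No explanation was tested for the 12 values.

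In the mito-supplemented group, replicate 1 stood apart for the level of Acsl1, at 200.4 CPM against 8.69 to 18.1, and of Acsl5, at 89.91 CPM against 11.6 to 16.0. Its share of the summed ACSL level per kb was 35.81% for Acsl1 against 3.75% to 9.04%, and 34.62% for Acsl5 against 12.46% to 15.6%. The same library had 11490 CPM of red cell markers against 62.09 to 199, and 737.7 CPM of leukocyte markers, led by Lyz2, against 8.55 to 16.9. Of the 9 leukocyte markers, 5 were tested and C1qb was at 0 in all libraries.

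Replicate 4 of the mito-supplemented group had 32.26 CPM of the 9 striated muscle markers, led by Actc1, against 5.85 to 8.88. Cpt1c was also highest there.

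Among controls, replicate 1 had 3699 CPM of oocyte markers against 181.2 to 662.2. Control replicate 4 had 983.5 CPM of pregranulosa markers against 196.2 to 298.7, and 360.8 CPM of surface epithelium markers against 38.89 to 88.32. It had 2289 CPM of the 10 stroma and endothelium markers, led by Col3a1, against 339.5 to 657.4. Its adipocyte markers summed to 2.171 CPM, all from Plin1, against 0 to 0.172. The highest Acsl6 level, 6.32 CPM, came from this library.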

How the results depend on the processing

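The 5-library fit without the red-cell-rich 3 and the fit without legacy settings were added after seeing the data. The count of 0 genes in edgeR's quasi-likelihood test became 58 with the likelihood ratio test, 141 with DESeq2 and 2578 with weighted limma-voom. The likelihood ratio count of 58 became 210 with library size only, 129 with the red cell covariate and 175 in the 5 libraries. With 1 library left out it was lowest at 13 (mito-supplemented replicate 2 left out) and highest at 387 (mito-supplemented replicate 1 left out), and was 22 and 331 without control replicates 2 and 4 and 26 without mito-supplemented replicate 4. The cause was not tested.

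The labels do not describe same-numbered libraries as pairs, and the deviations of these libraries correlated at -0.24, -0.19, -0.33 and 0.22. The main fit therefore used no pairing, and shared handling of such libraries was not tested. Blocking on replicate number gave 0 quasi-likelihood and 74 likelihood ratio calls. The adjusted p on which Acsl6 was chosen was 0.129 in the block fit, 0.0997 with library size only, 0.167 with genes kept at 1 count in any sample, 0.384 with counts summed by label prefix and 0.0962 in the 5 libraries (edgeR's likelihood ratio test). It was 0.0269 with the red cell covariate, 0.0277 with at least 1 CPM in 4 samples, 0.0426 with RLE, 0.0444 with rRNA genes left out and 0.0493 with upper quartile scaling (same edgeR test).

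Log2 fold changes that changed sign, with none of these values past an adjusted p of 0.05, are given by setting. With library size only they were 0.0736 for Acsl1, 0.0808 for Acsl4, 0.0641 for Cd36, 0.0081 for Crat, 0.17 for Hsd17b4 and 0.45 for Fads1. With the 5 libraries they were 0.0376 for Acsl4, 1.47 for Acsl5, 0.59 for Acss1, 0.70 for Crat, -0.35 for Abcd3, 2.15 for Agpat4, -0.0546 for Scd2, 0.34 for Fads1, -0.61 for Mlycd and -0.53 for Acacb. With the red cell covariate they were 0.67 for Acsl5, -0.11 for Cpt1c, 0.22 for Acss1, 0.27 for Crat, -0.14 for Abcd3, 1.13 for Agpat4, -0.0336 for Scd2 and 0.0872 for Fads1. With weighted limma-voom they were -0.56 for Cpt1c, 0.41 for Hsd17b4, 0.69 for Slc25a20 and 0.74 for Slc27a4. With the replicate block they were -0.30 for Cpt1c, 0.13 for Agpat4 and 0.14 for Fads1. With upper quartile scaling they were 0.0496 for Fads1. With at least 1 count in any sample they were 0.0174 for Fads1. With at least 1 CPM in 4 samples they were 0.00176 for Fads1. With rRNA genes left out they were 0.000994 for Fads1. With counts summed by label prefix they were 0.22 for Fads1. With 1 library left out in turn they ranged from -2.15 to 0.36 for Acsl1, from -0.73 to 0.37 for Cpt1c, from -3.33 to 0.80 for Cd36, from -0.49 to 0.16 for Crat, from -0.44 to 0.14 for Hsd17b4, from -0.27 to 0.38 for Abcd3, from -1.12 to 0.18 for Agpat4, from -0.13 to 0.52 for Scd2, from -0.30 to 0.14 for Fads1, from -0.85 to 0.18 for Slc25a20, from -0.31 to 1.18 for Mlycd, from -0.22 to 0.61 for Acacb and from -0.92 to 0.12 for Slc27a4.

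Weighted limma-voom put 2913 of all 13873 genes (21%) under an adjusted p of 0.05, and 14 of the 34 members and named pathway genes tested other than Acsl6 and Acsbg1, some of them named for their unadjusted p. These had log2 fold changes of Acsl1 -1.99, Cpt1a 0.85, Acsf2 3.06, Cd36 -2.78, Acaa2 1.26, Hadh 1.49, Ehhadh -2.34, Lpcat1 -3.05, Elovl5 1.40, Prkab1 -2.09, Prkaa1 -0.84, Ppara 2.72, Mlycd 2.94 and Acacb 1.47.

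The correlations with Acsl6 were not recomputed. Depth limits genes with few counts, such as Cpt1b with 11 and 6 counts in the groups, and control replicate 4 had the fewest counts outside rRNA.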
